A study of Drosophila melanogaster with 15 samples.

Results

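The amylase and maltase loci of Drosophila were read in whole flies of 5 genotypes kept under 3 conditions. They were taken as every row of the expression tables, measured with status OK, whose gene name held a symbol beginning with Mal-A, Mal-B or Amy, or the symbol tobi. This found 9 loci of the 14124 listed, all with status OK in all 15 libraries and all among the 10350 named loci that entered the tests. The 9 loci hold 10 of the 14 symbols that the reference gene table gives under the same rule. Mal-A2, Mal-A6, Mal-A8 and tobi were not analysed here.

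Amylase cleaves starch and glycogen into maltose and longer glucose chains, and maltases are alpha-glucosidases that release glucose from these products. In the adult fly these enzymes are made mainly in the midgut and secreted into the gut lumen. Their genes are known for glucose repression, a lowering of amylase and maltase transcripts on sugar-rich food that involves the Activin-type ligand Dawdle. The study asked how mutants of the Dystrophin-glycoprotein complex (DGC), which links the cytoskeleton to the extracellular matrix, respond to stress, and the sugar-free diet in it bears on these digestive genes.

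The mutants were Dg (Dg[O55]/Dg[O86], Dystroglycan), Dys (Df(3R)Exel6184/Df(3R)Exel6184, a deficiency that covers Dystrophin), Syn1 (Df(3L)BSC450/deltaSyn1[5-2], Syntrophin) and Nos (Df(2L)BSC230/deltaNos15, nitric oxide synthase), and the control was CantonS/w[1118]. Deficiencies remove neighbouring genes as well, which limits Dys, Syn1 and Nos as models of 1 gene. Each genotype was kept for 4 days on yeast paste without sugar (metabolic stress), for 5 days at 33 °C (temperature stress) or for 5 days at 25 °C (unstressed). Metabolic stress and its reference thus differed in length and in the whole food, and sugar cannot be told apart from these. Each genotype and condition gave 1 library from a pool of about 10 one-week-old males, so there were no replicates. A comparison of 2 libraries has no test, and the tests used the 5 genotypes as repeats of a condition or the 3 conditions as repeats of a genotype. Their p-values measure the spread between these single libraries.

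Values are FPKM, fragments per kilobase of transcript scaled to the mapped total, which can be compared between genes. The summed FPKM ranged from 242249 to 347097 over the libraries, and read depth is not known from these values. The label check gave 0 FPKM for Syn1 in all 3 Syn1 libraries, against 6.07 to 7.60 FPKM in control, and 0 FPKM for the highest locus named Dys alone in all 3 Dys libraries, against 22.9 to 30.1 FPKM in control. The locus that Dys shares with CG6255 was not lower, at 81.6 to 89.2 FPKM in Dys libraries and 49.8 to 74.5 FPKM in control. Dg stood at 12.5 to 19.3 FPKM in Dg libraries and 12.9 to 14.2 FPKM in control, and the Nos locus shared with CG6700 at 17.7 to 27.2 FPKM in Nos libraries and 31.2 to 45.4 FPKM in control. Of 17 midgut marker genes 12 had a locus, and none of these was at 0 in all libraries.

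Positions are those of the tables, whose genome build is not stated. Amy-d and the locus named Amy-p,Cda9,Spn53F (the Amy-p locus) are both listed on chromosome 2R from 13004301 to 13017858. These are near-identical copies of the amylase gene, so reads may have been split between them. Amyrel, an amylase-related gene of the same family, lies on 2R from 12528450 to 12540342. The Mal-A loci sit together on 2R. Mal-A1 is listed from 4331118 to 4339558, and Mal-A3 and Mal-A4 share the span 4340137 to 4348542. Mal-A5 is listed from 4349739 to 4409695, and the locus CG12780,Mal-A7,mtt (the Mal-A7 locus) from 4410002 to 4440194. Mal-B1 and Mal-B2 form 1 locus on 2L from 11846894 to 11854360 (the Mal-B locus). In the 3 loci with several symbols, a value cannot be given to 1 gene.

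The 9 loci together were a larger part of the transcriptome on yeast paste than in the other conditions. Their summed FPKM was 0.369% to 0.852% of the library in the 5 metabolic libraries, against 0.0658% to 0.260% at 33 °C and 0.0610% to 0.316% in unstressed flies. The lowest metabolic library thus lay above the highest library of either other condition. By mean over the 15 libraries the Amy-p locus was the highest at 315.6 FPKM, followed by Amy-d at 200.9, Mal-A5 at 94.1, the Mal-A7 locus at 74.8, Mal-A1 at 63.6, the Mal-B locus at 63.4, Mal-A4 at 32.6, Mal-A3 at 13.1 and Amyrel at 2.59 FPKM.

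The comparison of metabolic stress with unstressed flies asked how these genes differed on the yeast-paste diet as a whole. Both amylase loci and 5 of the 6 maltase loci rose by 3.18-fold to 6.50-fold over the 5 genotypes, and Mal-A3 and Amyrel did not pass the test. The Amy-p locus was at 579.8, 562.9, 492.8, 402.3 and 1390.5 FPKM in the metabolic libraries of Dg, Dys, Syn1, Nos and control. In the unstressed libraries of the same genotypes, in the same order, it was at 88.9, 53.1, 131.5, 251.9 and 217.4 FPKM. All metabolic values were above all unstressed values, a description given without the share of all loci that show it. On the log2(FPKM + 1) scale it was 2.26 ± 0.36 (SE) higher, with a 95% interval of 1.47 to 3.06 (limma, adjusted p = 0.019 against no change).

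Amy-d stood at 166.9, 312.3, 264.6, 424.7 and 856.0 FPKM in metabolic stress in Dg, Dys, Syn1, Nos and control. Its unstressed values, in the same order, were 21.2, 28.1, 95.9, 266.7 and 121.5 FPKM. Each genotype was higher on yeast paste, and the groups overlapped only through the unstressed Nos library. Its log2 difference was 2.26 ± 0.43 (SE), with an adjusted p of 0.0374 against no change in limma. With both copies summed, the log2 difference was 2.26 ± 0.39 (SE) with an adjusted p of 0.024, in a limma fit added after the data were seen.

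Amyrel did not follow the pair. It was at 2.78, 2.40, 2.23, 3.79 and 6.09 FPKM in the metabolic libraries of Dg, Dys, Syn1, Nos and control, and at 2.22, 2.59, 1.59, 3.83 and 1.61 FPKM in the unstressed ones. Only the control library was clearly higher on yeast paste, and the 4 mutants lay within 0.32 log2 units of their unstressed value. Its difference over genotypes was 0.38 ± 0.21 (SE) on the log2 scale, with a 95% interval of -0.08 to 0.84 and an adjusted p of 0.47 in limma.

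**Figure D1:**
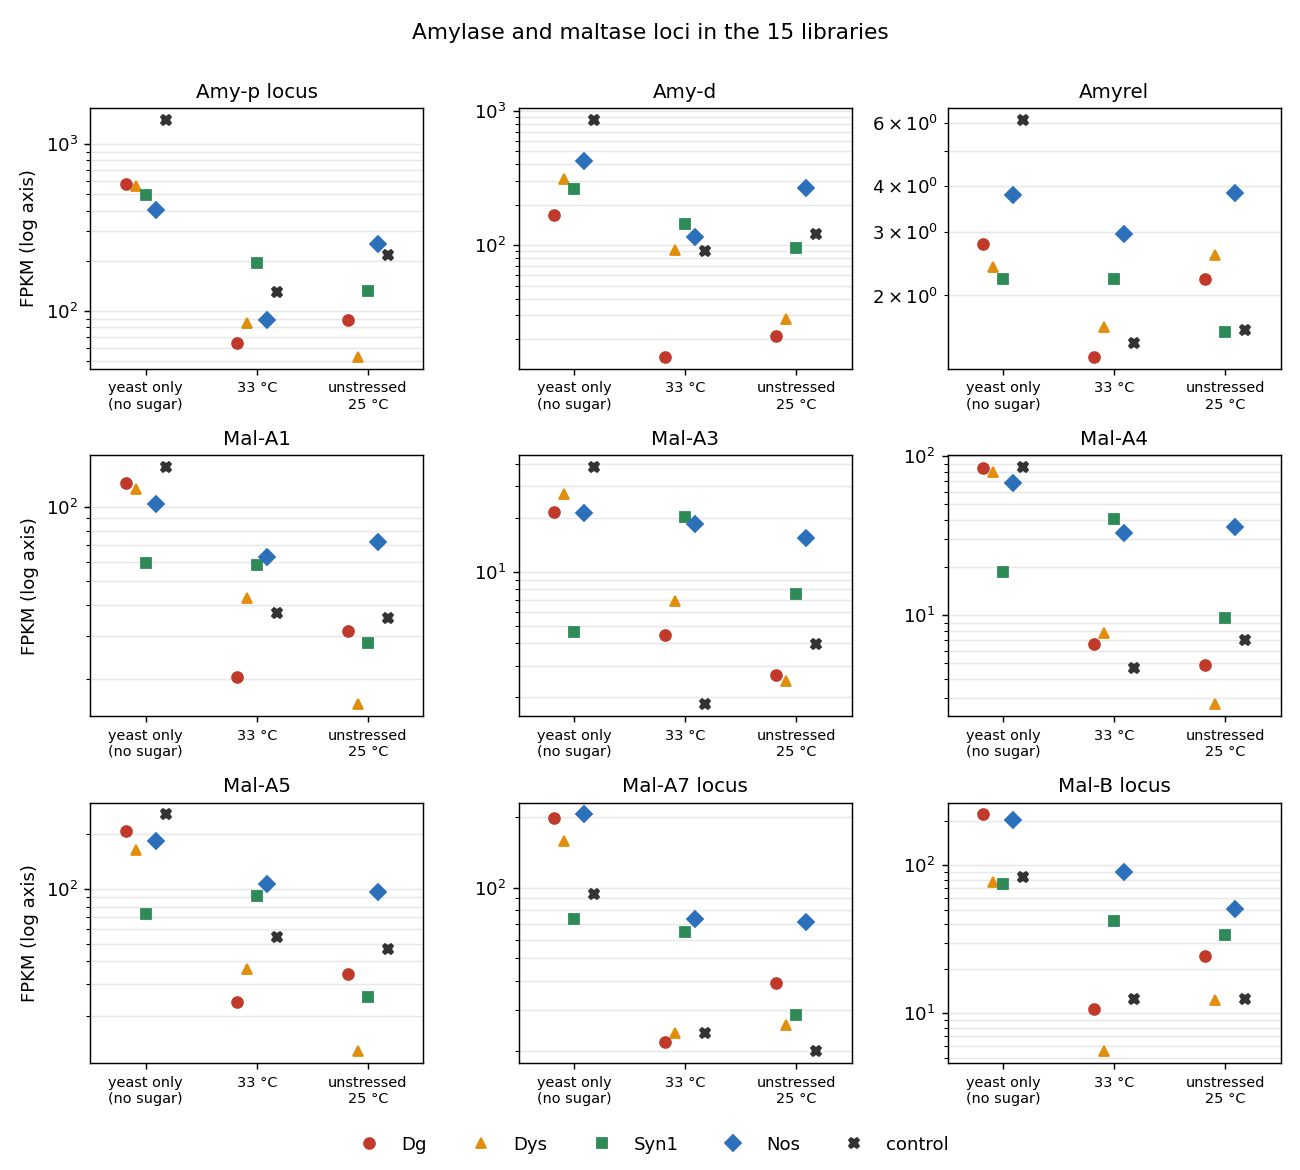
FPKM of the 9 amylase and maltase loci on log axes, 1 panel per locus, with 1 point per library (5 genotypes by colour and marker, 3 conditions along the axis). In the panels of the Amy-p, Mal-A7 and Mal-B loci all 5 yeast-only libraries sit above all 5 unstressed libraries. The share of all loci with such a separation is not given. In the Amyrel panel the control library at 6.09 FPKM stands alone.

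Among the maltases, Mal-A1 was at 125.0, 117.6, 59.1, 103.0 and 144.7 FPKM in metabolic stress in Dg, Dys, Syn1, Nos and control, against 31.5, 15.9, 28.1, 71.9 and 35.3 FPKM in the unstressed libraries in the same order. Syn1 was the lowest metabolic library and lay below the unstressed Nos library. Mal-A5 was at 208.6, 163.1, 72.8, 183.1 and 257.0 FPKM in metabolic stress, against 34.0, 12.8, 25.3, 96.5 and 46.6 FPKM. It had the same overlap, again of metabolic Syn1 with unstressed Nos. Over the 15 libraries these 2 loci were the most alike of the 36 pairs of the 9 loci, with a Pearson r of 0.98, where the pairs ranged from 0.63 to 0.98 with a median of 0.81. These libraries share conditions and genotypes, so r is a description.

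Mal-A4 had the largest estimate and a wide spread. It was at 85.0, 80.0, 18.7, 67.7 and 85.3 FPKM in metabolic stress in Dg, Dys, Syn1, Nos and control, against 4.91, 2.77, 9.64, 35.9 and 6.99 FPKM in unstressed flies in the same order. The unstressed Nos library was above metabolic Syn1. Mal-A3, listed at the same span, was at 21.8, 27.1, 4.61, 21.3 and 38.4 FPKM in metabolic stress, against 2.65, 2.48, 7.57, 15.4 and 3.98 FPKM. It was lower on yeast paste in 1 genotype, Syn1, and higher in the other four.

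The Mal-A7 locus was at 199.0, 157.5, 73.3, 205.6 and 94.3 FPKM in metabolic stress, against 39.0, 25.9, 28.5, 71.0 and 20.0 FPKM in unstressed flies, in the order Dg, Dys, Syn1, Nos and control. The groups did not overlap. The Mal-B locus was at 220.8, 77.0, 75.1, 200.9 and 83.7 FPKM in metabolic stress, against 24.4, 12.2, 34.0, 50.6 and 12.4 FPKM. There too the groups did not overlap, and metabolic Dg and Nos were far above the other metabolic libraries. The share of all loci without overlap is not given, so the separation at these loci is a description.

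In the fit, Mal-A4 differed by 2.70 ± 0.64 (SE, adjusted p = 0.0725 against no change in limma), the Mal-B locus by 2.29 ± 0.42 (adjusted p = 0.0298) and Mal-A5 by 2.20 ± 0.44 (adjusted p = 0.0425). The Mal-A7 locus differed by 1.98 ± 0.33 (adjusted p = 0.0205) and Mal-A1 by 1.67 ± 0.36 (adjusted p = 0.0535), all as log2 differences. Mal-A3 at 1.69 ± 0.64 did not pass the 2-fold test (adjusted p = 0.243 against no change), and without the Syn1 libraries it was 2.27 higher and passed. With Mal-A3 and Mal-A4 summed, in a fit added after the data were seen, the difference was 2.47 ± 0.66 (adjusted p = 0.105) and passed the 2-fold test. Mal-A1 lost its call without the control libraries (1.58) or without Dys (1.38). Thus 7 of 9 loci passed the rule of a 2-fold test with unadjusted P below 0.1, where 0.763% of the 10350 loci tested passed it in this direction. The median log2 difference was 2.20 over the 9 loci and -0.02 over all loci. After Benjamini-Hochberg adjustment over all loci none of the 9 passed the 2-fold test in limma (background 0.029%), while 7 of 9 passed a test against no change at adjusted p below 0.1, at a background of 2.57%. With no adjustment, 8 of the 9 had p below 0.05 against no change in limma, as had 1505 of the 10350 loci.

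The size of the diet response differed between genotypes as single pairs of libraries. At least 2-fold higher on yeast paste were 8 of 9 loci in Dg (background 4.29%), 8 in Dys (3.93%), 6 in Syn1 (1.62%), 2 in Nos (1.64%) and 9 in control (4.35%). The median log2 response of the 9 loci was 2.64 in Dg, 3.01 in Dys, 1.12 in Syn1, 0.67 in Nos and 2.66 in control. In Nos the 2 loci were the Mal-A7 locus at 1.52 and the Mal-B locus at 1.97 on the log2 scale. Nos had the highest unstressed value of the 5 genotypes at all 9 loci. That rests on 1 Nos library, and the share of all loci with this order is not given, so it is a description. The largest single response was that of Mal-A4 in Dys, at 4.43.

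**Figure D2:**
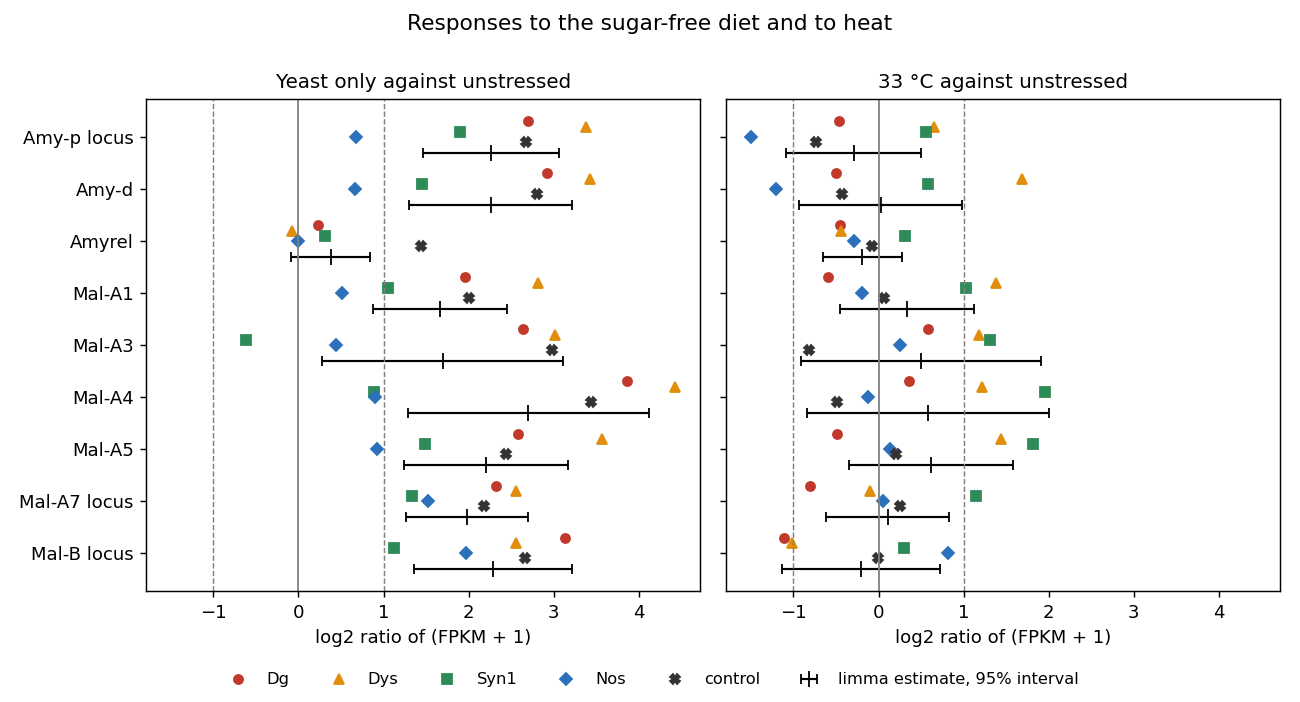
Log2 ratios of (FPKM + 1) for each locus, left for yeast only against unstressed and right for 33 °C against unstressed, with 1 point per genotype (1 library over 1 library) and the limma estimate over genotypes with its 95% interval in black. Dashed lines mark a 2-fold change. The diet estimates lie between 0.38 and 2.70 and the heat estimates between -0.29 and 0.62.

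Whether mutants as a group responded differently to the diet was tested by the difference of their mean response from that of control. The difference was negative at all 9 loci, between -1.61 at Mal-A3 and -0.25 at the Mal-A7 locus, and passed the 2-fold test at none (limma, background 0.415%). All rest on the same single control libraries. The median was -0.51 over the 9 loci and 0.02 over all loci. In the gene lists described below it was -1.49 for the first steps of hexose use, -0.91 for sugar transport and -0.70 for other glucosidases. It was -0.19 for sugar sensing and 0.06 for midgut markers. The intervals of the 9 loci were wide, as for Amy-d with -0.69 and a 95% interval of -3.27 to 1.89. Amyrel had the narrowest interval, with -1.33 ± 0.30 (SE) and a 95% interval of -2.02 to -0.64. It missed the 2-fold test, and its adjusted p against no change was 0.676. Across all loci no adjusted p against no change was below 0.1 in limma, with 390 loci below an unadjusted 0.05. Amyrel passed the 2-fold test without the Syn1 libraries (-1.40).

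Temperature stress left no call at these genes over the genotypes. None of the 9 loci passed the 2-fold test (background 0.792%), and none had an adjusted p below 0.1 against no change in limma, where 26.1% of loci did. No locus had an unadjusted p below 0.05 either. Estimates ran from -0.29 ± 0.36 (SE) at the Amy-p locus to 0.62 ± 0.44 at Mal-A5. The 95% intervals still allowed changes of over 2-fold at several loci, as at Mal-A4 with -0.84 to 2.00.

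The genotypes did not move alike at 33 °C. The Amy-p locus was at 64.1, 84.3, 194.6, 88.9 and 130.6 FPKM at 33 °C in Dg, Dys, Syn1, Nos and control, and Amy-d at 14.7, 92.7, 143.5, 114.8 and 89.9 FPKM. Set against their unstressed libraries, both copies were higher at 33 °C in Dys and Syn1 and lower in Dg, Nos and control. Amy-d was 1.69 log2 units higher in Dys and 1.21 lower in Nos. Amyrel was at 1.35, 1.64, 2.22, 2.96 and 1.48 FPKM at 33 °C, below the metabolic value in each genotype.

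Syn1 and Nos had the highest maltase values at 33 °C. Mal-A4 was at 6.59, 7.76, 40.3, 32.9 and 4.67 FPKM in Dg, Dys, Syn1, Nos and control at 33 °C, and Mal-A3 at 4.47, 6.91, 20.2, 18.5 and 1.83 FPKM. The Mal-B locus was at 10.8, 5.56, 42.0, 89.5 and 12.4 FPKM in the same order. In these 3 loci the Syn1 and Nos libraries lay above the other three. The same held for Mal-A1 at 20.5, 42.8, 58.3, 62.6 and 37.0 FPKM, for Mal-A5 at 24.0, 36.4, 91.2, 105.9 and 54.1 FPKM and for the Mal-A7 locus at 21.9, 24.0, 64.5, 73.4 and 24.0 FPKM. All 9 loci were higher at 33 °C than unstressed in Syn1, 6 in Dys, 4 in Nos, 3 in control and 2 in Dg. The share of all loci with this order of genotypes, or higher at 33 °C in each genotype, is not given. The loci are not independent and each genotype had a single library per condition, so the order and these counts are descriptions. No locus passed the test of the mutants' mean heat response against that of control (limma, background 0.271%, 383 loci with an unadjusted p below 0.05).

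Metabolic against temperature stress tested the difference of the 2 responses itself. The Amy-p locus was 2.56 ± 0.36 (SE) log2 units higher on yeast paste than at 33 °C (limma, adjusted p = 9.0e-04 against no change), the Mal-B locus 2.49 ± 0.42, Amy-d 2.23 ± 0.43, Mal-A4 2.12 ± 0.64 and the Mal-A7 locus 1.88 ± 0.33. These 5 of 9 passed, where 1.57% of all loci passed in this direction. Mal-A5 at 1.58, Mal-A1 at 1.33, Mal-A3 at 1.19 and Amyrel at 0.57 did not pass. Against no change at adjusted p below 0.1, 8 of 9 passed at a background of 20.3%. Without the Syn1 libraries 8 passed the 2-fold test, with the share of all loci in that fit not given. In 42 of 45 pairs of a locus and a genotype the metabolic library was above the one at 33 °C. The exceptions were all in Syn1. There Mal-A5 was at 72.8 against 91.2 FPKM at 33 °C, Mal-A4 at 18.7 against 40.3 and Mal-A3 at 4.61 against 20.2. The pairs are not independent, and the share over all loci is not given, so the count is a description.

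Between genotypes, Amy-d in Dg was the clearest difference. It was at 166.9, 14.7 and 21.2 FPKM in Dg under metabolic stress, temperature stress and no stress, against 856.0, 89.9 and 121.5 FPKM in control. The log2 difference was -2.35, -2.53 and -2.47 in these conditions, so that the mean of -2.45 had an SD of 0.09 (n = 3 conditions). It passed the 2-fold test over conditions (limma, SE 0.56, adjusted p = 0.0155 against no change) as 1 of 9 loci, where 1.74% of all loci were called lower. Without the term for condition it no longer passed, at the same difference. The Amy-p locus was also below control in Dg in all 3 conditions, by 1.02 to 1.28 on the log2 scale, and did not pass (-1.19 ± 0.47, adjusted p = 0.108 against no change in limma). With the 2 copies summed the difference in Dg was -1.56 ± 0.50 (SE, adjusted p = 0.0575 against no change) and did not pass the 2-fold test.

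The balance of the 2 amylase loci set Dg apart. The FPKM of the Amy-p locus over that of Amy-d was 3.47, 4.36 and 4.20 in Dg under metabolic, temperature and no stress. It was 1.80, 0.91 and 1.89 in Dys, 1.86, 1.36 and 1.37 in Syn1, 0.95, 0.77 and 0.94 in Nos and 1.62, 1.45 and 1.79 in control. The lowest Dg ratio was above the highest of the other 12 libraries, 1.89. The ratio was chosen after its values were seen and is a description. The Dg gene lies 1.02 Mb from the amylase pair on the same chromosome arm in the tables' coordinates. A difference in amylase copies between the chromosomes used was not tested.

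**Figure D3:**
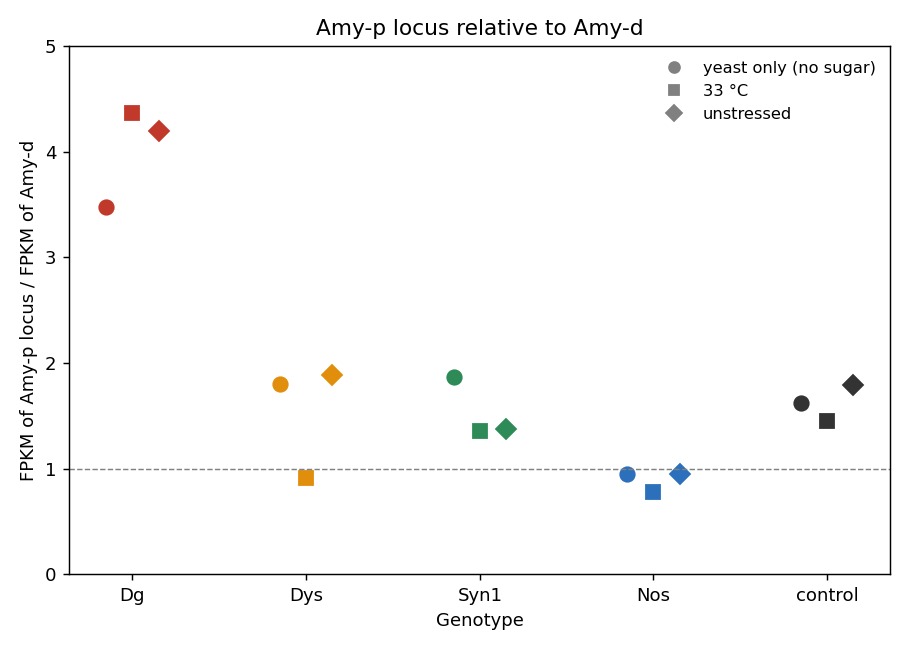
Ratio of the FPKM of the Amy-p locus to that of Amy-d (linear axis from 0), with 1 point per library grouped by genotype, the marker giving the condition and the dashed line equal FPKM. The 3 Dg points lie between 3.47 and 4.36 and the other 12 between 0.77 and 1.89.

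In Nos 1 of the 6 maltase loci, the Mal-B locus, passed the test against control. It was at 200.9, 89.5 and 50.6 FPKM in Nos under metabolic, temperature and no stress, against 83.7, 12.4 and 12.4 FPKM in control. Its mean log2 difference was 1.98 (SD 0.75, n = 3 conditions) and passed the 2-fold test (limma, adjusted p = 0.0572 against no change), 1 of 9 where 0.657% of all loci were called higher. It did not pass without the temperature libraries (1.60), without the unstressed libraries (2.00) or without the condition term (1.98). The Mal-A7 locus differed by 1.49 ± 0.42 (SE) and did not pass the 2-fold test, with an adjusted p of 0.0638 against no change. The Nos gene lies 1.00 Mb from the Mal-B locus on 2L.

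As single pairs, unstressed Nos was above unstressed control at all 9 loci and at least 2-fold above at 7 (background 2.93%), from 0.21 at the Amy-p locus to 2.21 at Mal-A4 on the log2 scale. On yeast paste Nos was below control at 7 of the 9 loci. Without the metabolic libraries 4 loci passed the test of Nos against control in limma, against 1 with them. The share of all loci called in that fit is not given, so the change of count is no result about these loci.

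Syn1 changed sides with condition. On yeast paste all 9 loci were below control, 7 of them at least 2-fold (background 5.03%), with -2.81 at Mal-A3 and -2.13 at Mal-A4 on the log2 scale. At 33 °C all 9 were above control, 4 of them at least 2-fold (background 4.66%), with 2.90 at Mal-A3 and 2.86 at Mal-A4. Over the 3 conditions no locus passed for Syn1 (limma, background 1.86%). In Dys no locus passed either (background 3.87%). The Amy-p locus was lower in Dys in all 3 conditions, at -1.30, -0.63 and -2.01 under metabolic, temperature and no stress. Its mean was -1.31 ± 0.47 (SE), with an adjusted p of 0.0535 against no change in limma. In this comparison 4544 of the 10350 loci had an unadjusted p below 0.05, so such a value was common.

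**Figure D4:**
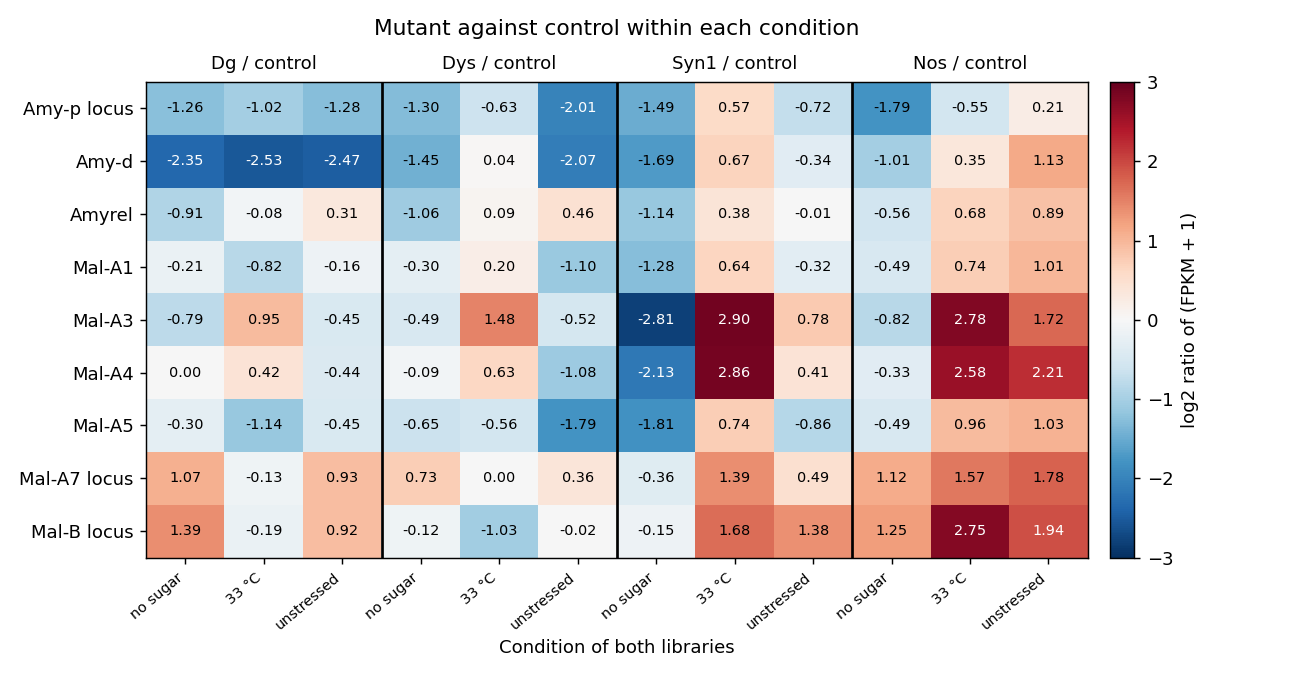
Log2 ratio of (FPKM + 1) of each mutant to control within a condition, 1 library over 1 library, for the 9 loci (rows) and the 3 conditions of each mutant (columns), on a colour scale from -3 to 3. Amy-d is at -2.35 to -2.53 in all 3 Dg columns, and all 9 Syn1 values are negative on yeast paste (the no sugar column) and positive at 33 °C.

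The neighbours of these genes mostly did not move with them. In a window of 50 kb, chosen after the data were seen, 28 other loci around the Mal-A loci, 16 around the amylase pair, 4 around the Mal-B locus and 12 around Amyrel were tested. On the diet 1 of the 28 was called higher, where 0.763% of all loci were, and none of the others in either direction. That one was the locus Cyp4e1,Cyp4e2, of 2 cytochrome P450 genes, which shares the listed span of Mal-A1 and was 2.62 log2 units higher on yeast paste (limma, adjusted p = 0.0744 against no change). The median diet difference of the 28 was -0.02 and of the 16 was -0.05. Several of the 28 had a mean below 1 FPKM, as Lcp3 at 0.17, where changes on this scale are understated. Some gene names, such as mtt, stand for more than 1 of these loci.

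The loci whose pattern over the 15 libraries was most like that of the Amy-p locus, among 7197 other named loci, were CG8952 (Pearson r = 0.96), CG15522 (0.96), the locus CG12236,CG3726 (0.95), CG8192 (0.93) and CG1998 (0.93). Among the amylase and maltase loci r ran from 0.63 at Amyrel to 0.88 at Amy-d, with the Mal-B locus at 0.71. Amy-d ranked 62 and the Mal-B locus 554 among the 7197 loci. These are descriptions over libraries that share conditions and genotypes.

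Other sugar genes were called on the diet in 1 case. None of 9 loci for sugar sensing and glucose repression passed the 2-fold test, none of 12 for sugar transport, none of 6 for other glucosidases and enzymes of starch, glycogen and trehalose, and 1 of 7 for the first steps of hexose use. The 1 was Galk, galactokinase, 1.48 ± 0.32 (SE) log2 units higher on yeast paste and past the 2-fold test. Of all loci 0.763% were called higher by that test. The median log2 differences of the 4 lists were -0.07, 0.43, 0.17 and 0.52, against -0.02 over all loci. At adjusted p below 0.1 against no change, the sugar transporter genes CG4607 (1.25) and CG8249 (1.16) and the locus of CG1208 (0.90) were higher. So was Sodh-2 (0.52), a sorbitol dehydrogenase, where 2.57% of all loci were higher by this test. The gene of the ligand Dawdle, daw, was 0.91 ± 0.19 (SE) log2 units lower (adjusted p = 0.049).

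The summed FPKM of the midgut markers was 3655 to 8982 in metabolic libraries, 1393 to 3921 at 33 °C and 1518 to 4863 in unstressed libraries. The ranges of metabolic and unstressed libraries overlapped, but within each genotype the sum was higher on yeast paste. It was 3655 against 1832 in Dg, 8982 against 1518 in Dys and 5615 against 2967 in Syn1. In Nos it was 6202 against 4177, and in control 6971 against 4863. Of the 12 loci none passed the 2-fold test. At adjusted p below 0.1 against no change in limma 3 were higher, where 2.57% of all loci were. These were the proteases betaTry (1.19) and Jon99Fii (1.00) and the transcription factor nub (0.94). The other 9 did not pass either test, with log2 differences of 1.55 at the locus of alphaTry, 1.04 at Jon65Aiv, 0.54 at GATAe, 0.11 at thetaTry, 0.09 at lab, 0.06 at Npc1b, 0.05 at GATAd, -0.04 at Ptx1 and -0.26 at mag. The median of the 12 was 0.33, against 2.20 for the amylase and maltase loci. In whole flies more gut cells and more RNA per cell cannot be told apart, and the part of the midgut in the diet difference was not tested. The lists for fat body, male accessory gland, testis, eggshell and flight muscle had no locus past either rule on the diet, with medians from -0.24 to 0.10.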

How the data were processed

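Poly(A) RNA of whole male flies was sequenced with 100 bp reads, 1 library per genotype and condition. The authors deposited 1 table of FPKM values per library, with no counts. The submitters' processing notes name STAR, DESeq2 and the BDGP6 build, and the study's methods describe transcript counts that were not used here. The tool and the build behind the FPKM tables are not given in the sources used here. Positions on 2R in the tables differ from those of the reference annotation, which was used for gene names only (8847 of 8875 names matched).

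Loci with a name and status OK in every library (10350) were analysed as log2(FPKM + 1) in limma 3.58.1 (R 4.3.3) with terms for genotype and condition, so that libraries of 1 genotype were paired. The call was the study's rule, a test against a 2-fold change (treat) at unadjusted P below 0.1, and Benjamini-Hochberg adjusted p-values over all loci are given beside it. A term for control by condition tested mutants against control. Fold changes on this scale understate those of low genes. The script was tested on simulated data. Tables and figures used Python 3.11.15, pandas 2.3.3 and matplotlib 3.10.9.

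Every locus under the rule was described with its value in every library where its mean was at least 1 FPKM, and list genes were named where they passed a test, save the midgut markers, which are all given. The 5 loci most like the highest locus were named by Pearson r. The loci and lists were chosen with earlier results of these data known. Alternatives were a pseudocount of 0.1, a mean of at least 1 FPKM as a filter where the main fit had none, median-ratio scaling of the libraries, an intensity-dependent prior variance, no genotype term, no condition term, a test against no change, leaving out each genotype or condition, and, added after the data were seen, the adjusted 2-fold test and summed neighbouring copies. No sequence was analysed here.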

Additional observations from a re-analysis of the deposited data

Results flagged for a closer look

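In a group of 5 genotypes, the diet response of Amyrel in control stood apart, at 1.44 on the log2 scale, with a gap to the next genotype of 0.74 of the whole range, above the critical 0.71. It was the single one of 18 sets of responses (9 loci, 2 stresses) past that value, and chance flags about 1 in 20 such sets. The heat response of Amy-d went in opposite directions by over 2-fold in 2 genotypes, at 1.69 in Dys and -1.21 in Nos on the log2 scale. Each is 1 library over 1 library, and the difference was not tested.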

How the results depend on the processing

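All 112 values of the 9 loci for the diet response under the alternatives were above 0, and the count of 7 called loci stayed within 1.5 times of itself except in the adjusted 2-fold test, which called 0 of the 9 loci in every comparison. For the diet minus heat, 8 loci passed against no change and 4 to 8 when 1 genotype was left out. Against no change at adjusted p below 0.1, 1 locus passed for Dys and 2 for Nos. Of all 10350 loci, 4544 for Dys and 2125 for Nos had an unadjusted p below 0.05 in limma. The counts under altered fits have no share of all loci beside them. They describe only how the calls depend on the processing. Without the condition term 0 passed for Dg and for Nos. With 1 condition left out, 0 to 4 loci passed for Nos and 0 to 1 for Syn1. For the diet response of the mutants minus control, 1 locus (Amyrel) passed with a pseudocount of 0.1, and 0 to 1 when 1 genotype was left out.

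The heat responses that turned sign were all below the threshold. With 1 genotype left out they ran from -0.46 to 0.024 at the Mal-B locus, -0.39 to 0.33 at Amy-d, -0.15 to 0.34 at the Mal-A7 locus and -0.53 to 0.0060 at the Amy-p locus, and the summed amylase pair gave -0.15 where Amy-d alone gave 0.02. The cause was not tested.

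The labels carry no replicate numbers, and in the condition comparisons libraries were paired by genotype through the genotype term. Without this pairing 7 loci passed for the diet, 0 for heat and 5 for the diet minus heat, and no call of the 9 loci changed. A test within 1 genotype had no replicate, and with no counts in these tables the precision from depth is not known.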
